A study of Mus musculus with 4 samples.

Results

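Collagens are secreted matrix proteins whose chains wind around each other in a rope-like helix, and each chain is encoded by a gene of its own. The collagen chain genes were taken here as every gene whose symbol has the form Col, a number, a and a number, which gave 39 of the 20089 genes measured. They comprise 11 chains of fibril-forming collagens, 6 type IV chains of the basement membrane, 4 type VI chains and 18 other chains. A further 5 annotated collagen symbols (Col6a5, Col6a6, Col9a1, Col14a1 and Col28a1) were not analysed here.

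Total RNA was sequenced from HT22 cells, an immortal line of mouse hippocampal neurons labelled as strain C57BL/6. The 4 libraries cross a lentivirus with a culture condition: Neat1-targeting lentivirus under OGD (knockdown OGD), control negative lentivirus under OGD (control OGD), Neat1-targeting lentivirus in DMEM/F12 with serum (knockdown normal) and control negative lentivirus in that medium (control normal). OGD, deprivation of oxygen and glucose, is a culture model of ischaemia, and Neat1 is the long noncoding RNA that scaffolds nuclear paraspeckles. The study set the knockdown against the control virus in unstressed and in stressed cells, with 1 library per group, all of 1 line and all virus-infected.

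With 1 library per group there was no test, and the spread between replicate cultures is unknown for every difference below. Levels are CPM, read counts relative to the TMM-scaled library size, and 0.5 CPM was added to each level before a log2 ratio was taken, which understates ratios of low genes. Ratios were computed where the larger scaled count of the pair was 20 or more. A gene is called higher or lower at 2-fold, a rule of size. Fold intervals are 95% exact conditional binomial intervals, computed without the added 0.5 CPM, and cover counting error only. In bulk RNA, fewer cells making a transcript and less transcript per cell cannot be told apart.

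The libraries held 17232866 to 20764430 reads in genes. Neat1 stood at 42.1 CPM in knockdown OGD against 74.4 CPM in control OGD, and at 121 CPM in knockdown normal against 193 CPM in control normal, so it was lower with its lentivirus by less than 2-fold in each culture. The control normal library stood apart in brain-type transcripts: the summed level of 6 neuronal markers was 146 CPM in knockdown OGD, 19.4 CPM in control OGD, 8.89 CPM in knockdown normal and 1585 CPM in control normal, with none of the 6 at 0 in any library. The 4 oligodendrocyte markers summed to 68.2 CPM in knockdown OGD, 8.91 CPM in control OGD, 4.75 CPM in knockdown normal and 207 CPM in control normal. The 4 mural cell markers, nearly all of it the smooth muscle actin gene Acta2, summed to 1251 CPM in knockdown OGD, 2215 CPM in control OGD, 686 CPM in knockdown normal and 984 CPM in control normal, and the 4 fibroblast markers to 22.6 CPM in knockdown OGD, 5.85 CPM in control OGD, 18.9 CPM in knockdown normal and 17.7 CPM in control normal, with Lum at 0 in all but the knockdown OGD library. Transcripts of the ribosomal RNA repeat took 0.341% of reads in knockdown OGD, 4.78% in control OGD, 4.32% in knockdown normal and 1.81% in control normal. The part of these differences in the results below was not tested except where a value is given beside the result.

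Fibrillar chains (types I, II, III, V, XI, XXIV and XXVII) assemble into the banded fibrils of connective tissue. Type IV chains form the sheet-like network of basement membranes, which in brain surround blood vessels. Type VI chains form beaded microfilaments between fibrils and basement membranes. The remaining chains coat fibrils, span the cell membrane, anchor epithelia or carry fragments such as endostatin. In brain, collagens are known mostly from vessels and meninges, and neurons make a few of them.

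Collagen reads were a smaller share of the library in each knockdown culture than in its control, and in each OGD culture than in its normal counterpart. All 39 chains together took 0.379% of reads in knockdown OGD, 0.417% in control OGD, 0.449% in knockdown normal and 0.570% in control normal. The spread came largely from Col1a1, the main chain of type I collagen, which made up 20.4% of collagen reads in knockdown OGD, 34.6% in control OGD, 46.2% in knockdown normal and 49.6% in control normal. Type IV chains made up 21.2% of collagen reads in knockdown OGD, 14.3% in control OGD, 16.4% in knockdown normal and 10.8% in control normal. Type VI chains made up 2.07% in knockdown OGD against 4.23% in control OGD, and 1.48% in knockdown normal against 2.76% in control normal, lower with the Neat1 lentivirus in both cultures.

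**Figure D1:**
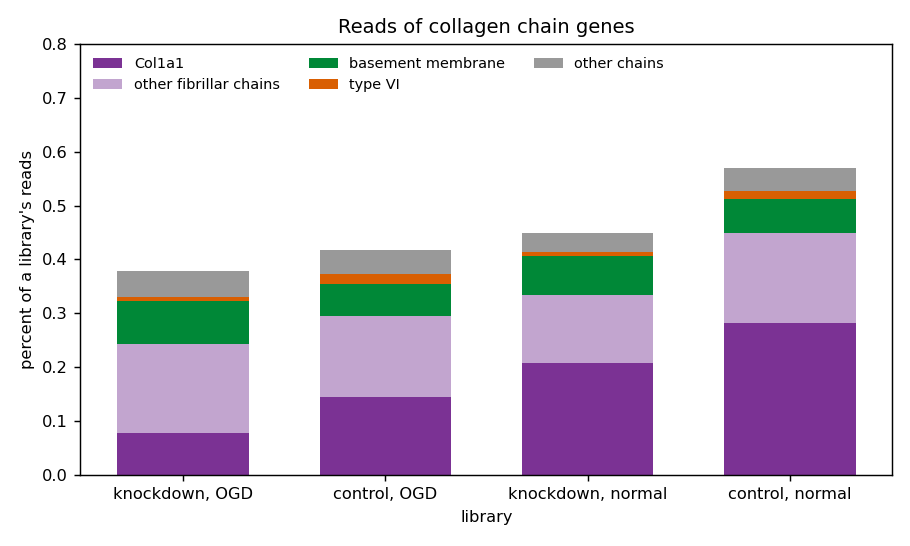
Stacked bars show the share of each library's reads (percent) taken by Col1a1, the other fibrillar chains, basement membrane, type VI and other chains, 1 library per bar. The total runs between 0.379% in knockdown OGD and 0.570% in control normal, and the Col1a1 segment differs most between bars.

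Per length, on the deposited scale read as FPKM, the leading chain was not the same in all libraries. Col5a2, a type V chain that helps start fibrils, led in knockdown OGD at 226 FPKM, followed by Col1a1 at 148 FPKM and Col3a1 at 88.7 FPKM. In control OGD the order was Col1a1 at 268 FPKM, Col5a2 at 171 FPKM and Col3a1 at 152 FPKM. In knockdown normal Col1a1 stood at 389 FPKM, Col5a2 at 145 FPKM and Col3a1 at 68.9 FPKM. In control normal Col1a1 stood at 530 FPKM, Col3a1 at 187 FPKM and Col5a2 at 137 FPKM. The type IV chains Col4a1 (60.5 to 77.9 FPKM) and Col4a2 (41.7 to 69.7 FPKM) and the fibril-coating chain Col12a1 (37.4 to 69.7 FPKM) came next, except that Col16a1 (39.6 FPKM) and Col5a1 (38.8 FPKM) stood above Col12a1 (37.4 FPKM) in knockdown normal. No chain of the cartilage types II, IX, X and XI stood above 2.45 FPKM in any library.

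**Figure D2:**
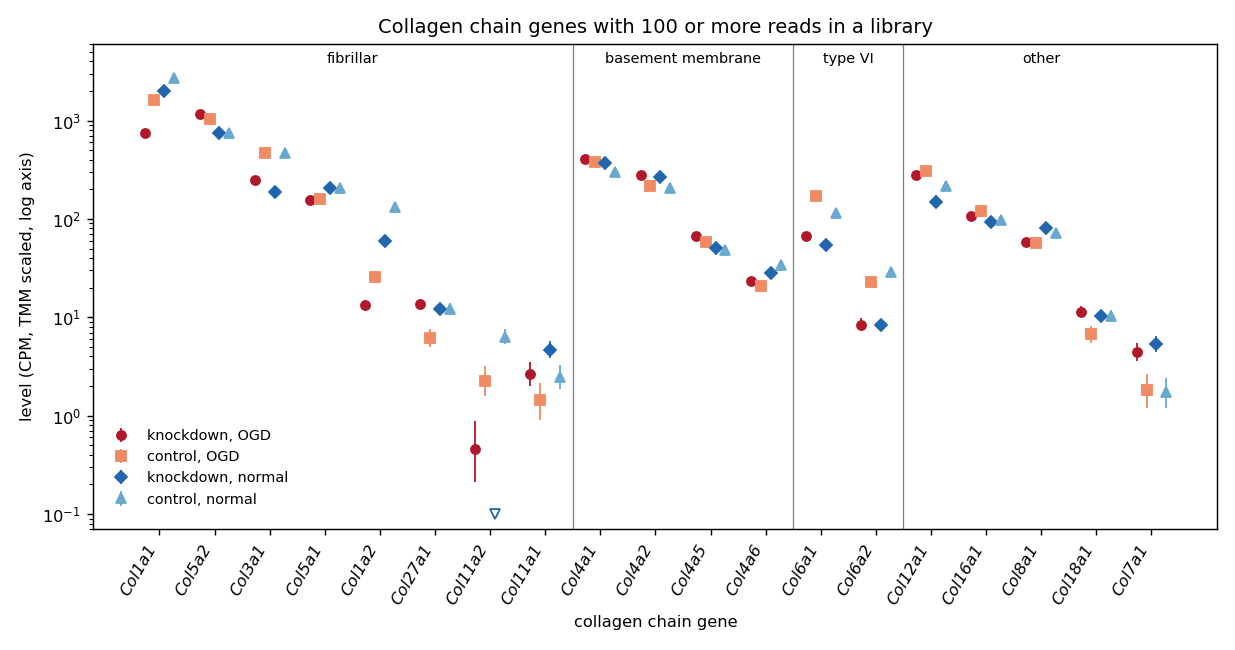
Points show the level (TMM-scaled CPM, log axis) of the 19 chains with 100 or more reads in their highest library, in each of the 4 libraries, with 95% exact Poisson intervals that cover counting error only. The open triangle marks Col11a2 at 0 reads in knockdown normal. Col1a1 lies between 753 CPM in knockdown OGD and 2681 CPM in control normal, while Col4a1 lies within 298 to 409 CPM.

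With Neat1 knockdown in normal culture, 11 of 27 collagen chains past the floor were lower and 2 were higher. Over all 14525 genes in that comparison 16.3% were lower and 6.14% higher, and the median log2 ratio was -0.26 for the collagen chains against -0.03 for all genes. With a floor of 100 the medians were -0.05 over 18 chains and -0.01 over all genes. The lower chains were Col1a2, Col3a1, Col6a1, Col6a2, Col6a3 and 6 low chains, Col2a1, Col9a2, Col9a3, Col11a2, Col15a1 and Col17a1. The higher ones were Col5a3 and Col7a1, both with few reads. Of these low chains all but Col9a3 passed the floor only through the control library, as did Col6a3.

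With knockdown under OGD, 5 of 22 chains were lower, namely Col1a1, Col6a1, Col6a2, Col6a3 and Col11a2, against 4.45% of 13252 genes. Col11a2 passed the floor only through the control library. The higher chains were 2 of 22, Col7a1 and Col27a1, a share of 9.09% that lay near the 10.1% of all genes. The median of the chains was -0.01, and that of all genes also -0.01. The Col1a1 call rested on the scaling: with total counts its log2 ratio was -0.90 in place of -1.10, and with FPKM -0.86, while with total counts the median over all genes moved to 0.18.

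With OGD in control cells, 6 of 25 chains were lower (Col1a2, Col2a1, Col6a4, Col9a2, Col9a3 and Col11a2), a share of 24.0% near the 21.4% of 13930 genes. Among these, Col2a1, Col6a4 and Col9a2 passed the floor only through the control normal library. No chain was higher, against 9.62% of genes. The medians were -0.35 for the chains and -0.10 for all genes. With OGD in knockdown cells, 3 of 23 chains were lower (Col1a1, Col1a2 and Col6a4), 13.0% against 16.8% of 14034 genes, and 1 was higher (Col6a3), 4.35% against 19.1%. Here Col6a4 passed the floor only through knockdown normal and Col6a3 only through knockdown OGD. The medians were 0.09 for the chains and 0.00 for all genes.

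Stricter floors left fewer chains and fewer of the calls. With 20 or more scaled counts in both libraries, a floor added after the data were seen, knockdown in normal culture had 1 higher and 5 lower of 20 chains (3.35% and 6.41% of all genes). Knockdown under OGD had 2 higher and 4 lower of 20 (4.14% and 2.76% of genes). OGD had 0 higher and 3 lower of 22 in control cells (9.28% and 12.1%), and 0 higher and 2 lower of 18 in knockdown cells (13.2% and 13.4%). With a floor of 100, the knockdown counts were 1 higher and 5 lower of 18 in normal culture (3.09% and 11.5% of genes) and 1 higher and 3 lower of 16 under OGD (4% and 2.78%). The OGD counts were 0 and 2 of 17 in control cells (9.64% and 16.4%) and 0 and 2 of 17 in knockdown cells (15.1% and 14.4%). The calls that met both floors were Col1a2, Col3a1, Col6a1 and Col6a2 as lower and Col7a1 as higher for knockdown in normal culture, and Col1a1, Col6a1 and Col6a2 as lower and Col27a1 as higher for knockdown under OGD. For OGD they were Col1a1 and Col1a2 as lower in knockdown cells, and Col1a2 and Col11a2 as lower in control cells.

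**Figure D3:**
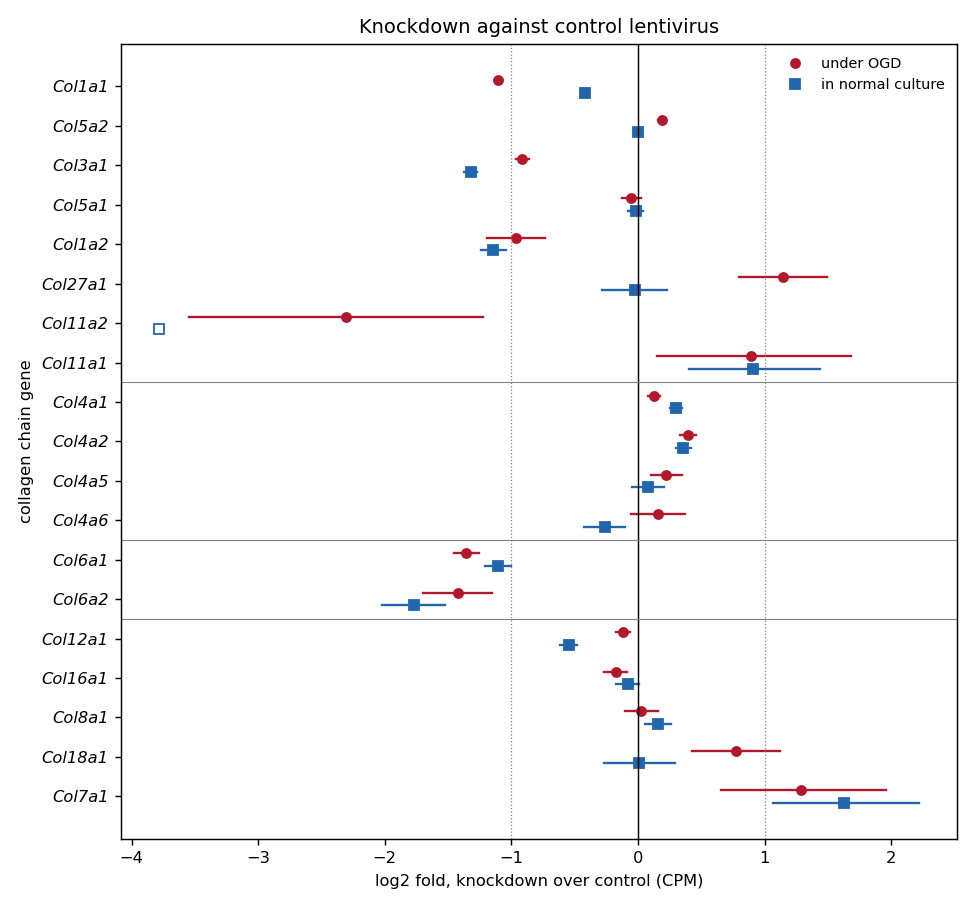
Points show the log2 fold of knockdown over control for the 19 chains with 100 or more reads in their highest library, under OGD and in normal culture, with 95% exact conditional binomial intervals. Dotted lines mark 2-fold, and the open symbol is Col11a2, with a library at 0 reads, drawn at its log2 ratio with 0.5 CPM added. Col6a1 and Col6a2 lie beyond the lower line in both cultures, and the type IV chains lie between the lines.

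Type I collagen is the main fibril collagen of bone, skin and tendon. Its first chain gene Col1a1 (ENSMUSG00000001506, chromosome 11, 94936224 to 94953042 on GRCm38, plus strand) stood at 753 CPM in knockdown OGD, 1617 CPM in control OGD, 2003 CPM in knockdown normal and 2681 CPM in control normal. Col1a1 was lowest where the Neat1 lentivirus and OGD were combined and highest with neither. Knockdown went with a 2.15-fold lower level under OGD (2.10 to 2.19) and a 1.34-fold lower level in normal culture (1.32 to 1.36). OGD went with a 2.66-fold lower level in knockdown cells (2.61 to 2.71) and a 1.66-fold lower level in control cells (1.63 to 1.68). The knockdown log2 ratio under OGD minus that in normal culture was -0.68 (counting SE 0.018), a difference with no test. With total counts the 2 ratios were closer, at -0.90 under OGD and -0.45 in normal culture. The size of the difference thus depends on the scaling, which the counting SE does not cover.

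The partner chain gene Col1a2 (ENSMUSG00000029661, chromosome 6, 4504814 to 4541544, plus strand) stood at 13.2 CPM in knockdown OGD, 25.8 CPM in control OGD, 59.6 CPM in knockdown normal and 131 CPM in control normal. The libraries keep the order seen for Col1a1. OGD went with a 5.09-fold lower level in control cells (4.58 to 5.67) and a 4.50-fold lower level in knockdown cells (3.94 to 5.17). In FPKM Col1a2 stood at 8.08 in knockdown OGD against 17.0 in knockdown normal, a smaller difference than by CPM. It stood at 6.47 FPKM in control OGD against 31.5 FPKM in control normal. Knockdown went with a 2.21-fold lower level in normal culture (2.06 to 2.36) and a 1.95-fold lower level under OGD (1.66 to 2.29), a log2 ratio of -0.94 under OGD that does not reach 2-fold. On the deposited FPKM scale the knockdown log2 ratio was 0.30 under OGD, the opposite sign, and -0.87 in normal culture, which ends that call. The length implied by reads and FPKM was 1681 bases for Col1a2 in knockdown OGD against 3561 to 4403 bases in the other libraries, so the scales of that gene do not match across libraries.

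Type I collagen is normally assembled from both chains, with more of the Col1a1 product. The ratio of Col1a1 to Col1a2 in FPKM was 18.3 in knockdown OGD, 41.4 in control OGD, 22.9 in knockdown normal and 16.8 in control normal. In reads it was 56.9 in knockdown OGD, 62.7 in control OGD, 33.6 in knockdown normal and 20.4 in control normal. On either scale Col1a1 was far above Col1a2 in every library, and by reads the ratio was higher in both OGD libraries than in both normal ones, an order that the FPKM values do not show.

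The region before the RefSeq start of Col1a2 is shown because this chain had the largest OGD ratio among chains with 100 or more reads, and the motif searched is the core of the hypoxia-response element, ACGTG or CACGT on either strand. Printed 5′ to 3′ from RefSeq (GRCm38.p6) is chr6:4505370-4505492, plus strand, the stretch of its promoter window that overlaps no annotated exon; the last base lies 126 bases before the RefSeq start site at 4505618, which is inside the GENCODE gene span given above. Capitals mark the motif. The whole window holds 2 copies, the other lying in annotated exon sequence that is not printed.
Col1a2: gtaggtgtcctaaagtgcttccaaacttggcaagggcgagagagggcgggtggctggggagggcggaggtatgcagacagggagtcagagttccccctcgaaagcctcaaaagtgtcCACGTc
The sequences used held 33 RefSeq promoters of 31 collagen chains, and none of Col1a1, Col5a2 or Col12a1. Of the 33, 4 held the motif in the 250 bases before the start (Col1a2, Col4a4, Col5a1 and Col11a2). Over all genes 16.6% of 32851 promoters held it. Counted by chain and not by promoter, the collagen share was 12.9%. A match is a description of the letters and not a binding site.

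Col3a1 (ENSMUSG00000026043, chromosome 1, 45311538 to 45349706, plus strand) encodes type III collagen of skin and vessel walls. It stood at 249 CPM in knockdown OGD, 468 CPM in control OGD, 189 CPM in knockdown normal and 473 CPM in control normal. Both control libraries lay above both knockdown libraries. Knockdown went with a 2.50-fold lower level in normal culture (2.41 to 2.59) and a 1.88-fold lower level under OGD (1.82 to 1.95). OGD ratios were small: log2 -0.01 in control cells, which turned to 0.06 with median-of-ratios size factors, and 0.39 in knockdown cells. In the authors' deposited table the log2 ratio of Col3a1 was -1.32 for knockdown in normal culture. The deposited p-values rest on 1 library against 1 and cannot measure the spread between cultures, so they are not given here.

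The neighbouring gene Col5a2 (chromosome 1, 45374321 to 45503282, minus strand) ends 24615 bases from Col3a1 and runs towards it. Col5a2 stood at 1174 CPM in knockdown OGD, 1029 CPM in control OGD, 748 CPM in knockdown normal and 747 CPM in control normal. Unlike Col3a1, it showed no knockdown difference of size (log2 0.00 in normal culture, 0.19 under OGD) and stood higher in both OGD libraries, 1.57-fold in knockdown cells (1.54 to 1.60) and 1.38-fold in control cells (1.35 to 1.41), short of 2-fold. Its partner Col5a1, also a type V chain, stood at 155 CPM in knockdown OGD, 160 CPM in control OGD, 206 CPM in knockdown normal and 208 CPM in control normal, lower in both OGD libraries. The FPKM ratio of Col5a2 to Col5a1 was 8.23 in knockdown OGD, 6.30 in control OGD, 3.73 in knockdown normal and 3.11 in control normal, higher in the OGD libraries.

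The stretch before Col3a1 is shown as the promoter of a chain that was lower with knockdown in normal culture. It is chr1:45311288-45311537, plus strand, RefSeq GRCm38.p6, printed 5′ to 3′, and holds neither ACGTG nor CACGT.
Col3a1: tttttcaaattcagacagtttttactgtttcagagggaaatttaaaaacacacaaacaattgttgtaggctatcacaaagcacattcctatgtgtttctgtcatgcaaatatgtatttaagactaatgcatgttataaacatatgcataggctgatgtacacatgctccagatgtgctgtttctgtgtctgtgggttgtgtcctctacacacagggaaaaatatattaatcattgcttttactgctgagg

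Among the remaining fibrillar chains, Col27a1, a chain of developing cartilage, stood at 13.6 CPM in knockdown OGD, 6.18 CPM in control OGD, 12.0 CPM in knockdown normal and 12.2 CPM in control normal. The control OGD library was the low one of the 4. It was 2.21-fold higher with knockdown under OGD (1.74 to 2.82), and 1.02-fold lower with knockdown in normal culture (0.851 to 1.22). With 2 CPM added the log2 ratio under OGD was 0.94, short of 2-fold. The log2 difference between these ratios was 1.11 (counting SE 0.22). Col11a2, a cartilage fibril chain, had 9 reads in knockdown OGD, 35 in control OGD, 0 in knockdown normal and 125 in control normal. With the 0 reads set to 3, its level was at least 45.6-fold lower with knockdown in normal culture; the exact interval reaches down to 36.6-fold. It was 4.95-fold lower under OGD (2.33 to 11.7). The control normal library, which stood apart in neuronal markers, was the highest for Col11a2; the part of that in the ratio was not tested. The partner chain Col11a1 had 52 reads in knockdown OGD, 22 in control OGD, 101 in knockdown normal and 49 in control normal, with the knockdown normal library highest and no call.

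Type IV chains gave no call in any of the 4 comparisons, with 4 chains past the floor in each. By comparison and direction, 4.45% to 21.4% of all genes were called. With so few chains, a count of 0 cannot be set apart from those shares. Col4a1 (chromosome 8, 11198423 to 11312826, minus strand) and Col4a2 (chromosome 8, 11312805 to 11449287, plus strand) form the network found in nearly all basement membranes and lie head to head, sharing 22 bases. Col4a1 stood at 409 CPM in knockdown OGD, 376 CPM in control OGD, 368 CPM in knockdown normal and 298 CPM in control normal. Col4a2 stood at 281 CPM in knockdown OGD, 214 CPM in control OGD, 264 CPM in knockdown normal and 206 CPM in control normal. Both were highest in knockdown OGD and lowest in control normal.

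The knockdown log2 ratios were 0.30 for Col4a1 and 0.36 for Col4a2 in normal culture, and 0.12 and 0.40 under OGD. The counting intervals of all 4 lay above 1-fold, and their sizes lay within 1.32-fold. Under OGD Col4a2 had a log2 ratio of 0.05 in control cells, which turned to -0.19 with total counts, and 0.09 in knockdown cells. The FPKM ratio of Col4a1 to Col4a2 stayed between 1.02 in knockdown normal and 1.54 in control OGD. Since counting may not have used strand, reads in the shared bases could not be assigned to 1 gene. Exons of Col3a1, Col5a1, Col6a4, Col7a1, Col9a3, Col10a1 and Col15a1, among others, also overlap exons of other annotated genes.

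Col4a5 and Col4a6, a second head-to-head pair on chromosome X 1309 bases apart, encode chains of basement membranes such as those of kidney and smooth muscle. Col4a5 stood at 67.4 CPM in knockdown OGD, 57.7 CPM in control OGD, 51.0 CPM in knockdown normal and 48.4 CPM in control normal. Col4a6 stood at 23.1 CPM in knockdown OGD, 20.7 CPM in control OGD, 28.1 CPM in knockdown normal and 33.7 CPM in control normal, in the opposite order by culture. Their FPKM ratio was 3.23 in knockdown OGD, 3.68 in control OGD, 2.35 in knockdown normal and 2.00 in control normal. Col4a3 and Col4a4, chains of the kidney filter, had at most 1 and 3 reads.

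The type VI chains Col6a1, Col6a2 and Col6a3 were lower with the Neat1 lentivirus in both cultures. In normal culture 3 of 4 chains past the floor were lower, with a median log2 ratio of -1.41, against 16.3% of all genes, and under OGD 3 of 3, with a median of -1.37, against 4.45% of all genes. In normal culture Col6a3 passed the floor only through the control library. The 2 comparisons share no library. The fourth, Col6a4, is past the floor only where a normal library is compared.

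Col6a1 (ENSMUSG00000001119, chromosome 10, 76708792 to 76726168, minus strand), which with Col6a2 and Col6a3 makes the basic unit of type VI collagen, stood at 66.5 CPM in knockdown OGD, 170 CPM in control OGD, 53.8 CPM in knockdown normal and 116 CPM in control normal. It was lower with knockdown, 2.56-fold under OGD (2.39 to 2.74) and 2.15-fold in normal culture (2.00 to 2.31). Both control libraries stood above both knockdown libraries. OGD went with a 1.47-fold higher level in control cells (1.39 to 1.56) and a 1.24-fold higher level in knockdown cells (1.14 to 1.34).

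Col6a2 (ENSMUSG00000020241, chromosome 10, 76595762 to 76623630, minus strand), 85162 bases from Col6a1, stood at 8.43 CPM in knockdown OGD, 22.6 CPM in control OGD, 8.38 CPM in knockdown normal and 28.6 CPM in control normal. It was lower with knockdown, 2.68-fold under OGD (2.22 to 3.25) and 3.41-fold in normal culture (2.88 to 4.06). Col6a3 (ENSMUSG00000048126, chromosome 1, 90765923 to 90843971, minus strand) had 27 reads in knockdown OGD, 77 in control OGD, 8 in knockdown normal and 67 in control normal. It was lower with knockdown, 3.63-fold under OGD (2.31 to 5.85) and 9.17-fold in normal culture (4.40 to 22.1), with wide intervals from few reads. OGD in knockdown cells gave Col6a3 a log2 ratio of 1.11, a call resting on 27 against 8 reads. The FPKM ratio of Col6a1 to Col6a2 was 9.48 in knockdown OGD, 8.32 in control OGD, 7.33 in knockdown normal and 4.26 in control normal.

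The lower level of these 3 chains stood beside neuronal marker sums that ran the other way between cultures: 146 CPM in knockdown OGD against 19.4 CPM in control OGD, and 8.89 CPM in knockdown normal against 1585 CPM in control normal. The fibroblast marker sum was 22.6 CPM in knockdown OGD against 5.85 CPM in control OGD, and 18.9 CPM in knockdown normal against 17.7 CPM in control normal, a sum made up almost entirely of Pdgfra in normal culture, where Pdgfra stood at 18.7 CPM in knockdown normal against 15.0 CPM in control normal, Thy1 at 0.186 CPM against 2.24 CPM and Dcn at 0 against 0.408 CPM, with Lum at 0 in both. The mural marker sum, nearly all Acta2, was lower in the knockdown library each time. It was 1251 CPM in knockdown OGD against 2215 CPM in control OGD and 686 CPM in knockdown normal against 984 CPM in control normal. Pdgfrb was also lower with knockdown in both cultures. Cspg4 was lower under OGD but stood at 35.2 CPM in knockdown normal against 31.3 CPM in control normal. Rgs5 was lower in normal culture but stood at 0.868 CPM in knockdown OGD against 0.195 CPM in control OGD. The part of the mural markers in the type VI difference was not tested. Promoters are shown for Col6a2 and Col6a3 as chains that were lower together. Each is the 250 bases before a RefSeq start on GRCm38.p6, printed 5′ to 3′ on the minus strand. They lie at chr10:76623631-76623880 for Col6a2 and chr1:90843972-90844221 for Col6a3, and neither holds ACGTG or CACGT. Col6a2 has another RefSeq start at 76623404, whose window overlaps annotated Col6a2 exon sequence and is not printed. The window of Col6a1, lower with these chains, is not printed either, and both unprinted windows lack the motif.
Col6a2: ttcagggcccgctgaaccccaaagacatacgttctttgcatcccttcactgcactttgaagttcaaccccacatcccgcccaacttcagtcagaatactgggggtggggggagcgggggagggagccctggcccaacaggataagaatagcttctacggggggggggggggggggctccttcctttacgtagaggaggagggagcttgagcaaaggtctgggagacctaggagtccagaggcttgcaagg
Col6a3: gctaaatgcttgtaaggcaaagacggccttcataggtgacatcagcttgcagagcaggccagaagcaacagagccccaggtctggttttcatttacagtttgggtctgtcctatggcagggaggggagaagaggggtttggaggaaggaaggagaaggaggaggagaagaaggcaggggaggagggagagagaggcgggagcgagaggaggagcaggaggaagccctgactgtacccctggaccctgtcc

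Col6a4, which in mouse is a further type VI chain, had 0 reads in knockdown OGD, 1 in control OGD, 36 in knockdown normal and 32 in control normal. Reads were nearly confined to the normal libraries. With the 0 reads set to 3, the level was at least 10.9-fold lower with OGD in knockdown cells, where the exact interval reaches down to 8.45-fold. It was 25.1-fold lower in control cells (4.19 to 1022), where 1 read sets the wide interval. Knockdown in normal culture gave a log2 ratio of 0.03.

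Among the other chains, the fibril-coating chain Col12a1 stood at 282 CPM in knockdown OGD, 306 CPM in control OGD, 147 CPM in knockdown normal and 214 CPM in control normal. Both OGD libraries were above both normal ones, 1.92-fold in knockdown cells (1.84 to 2.01) and 1.43-fold in control cells (1.37 to 1.49). Its knockdown log2 ratio was -0.54 in normal culture and -0.12 under OGD, which turned to 0.09 with total counts. Col16a1, a chain of the same fibril-associated family, stood at 107 CPM in knockdown OGD, 121 CPM in control OGD, 92.9 CPM in knockdown normal and 98.3 CPM in control normal, within 1.23-fold in every comparison.

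Col8a1, a short network-forming chain of vessel walls and cornea, stood at 58.2 CPM in knockdown OGD, 57.1 CPM in control OGD, 80.9 CPM in knockdown normal and 72.6 CPM in control normal, lower in the OGD libraries by 1.39-fold in knockdown cells and 1.27-fold in control cells. Col18a1, the precursor of endostatin, stood at 11.4 CPM in knockdown OGD, 6.70 CPM in control OGD, and 10.3 CPM in each normal library, with a knockdown fold of 1.71 under OGD (1.35 to 2.18). Its implied length was 2008 bases in knockdown OGD against 3358 bases in control OGD, and its FPKM was 5.85 in knockdown OGD against 1.78 in control OGD, past 2-fold on that scale. Col7a1, the anchoring fibril chain of skin, had 87 reads in knockdown OGD against 28 in control OGD, and 115 in knockdown normal against 34 in control normal. It was higher with knockdown in both cultures, 2.44-fold under OGD (1.58 to 3.88) and 3.09-fold in normal culture (2.09 to 4.67). With 2 CPM added the log2 ratio was short of 2-fold in each (0.75 under OGD and 0.98 in normal culture), and the log2 FPKM ratio in normal culture was 0.04.

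**Figure D4:**
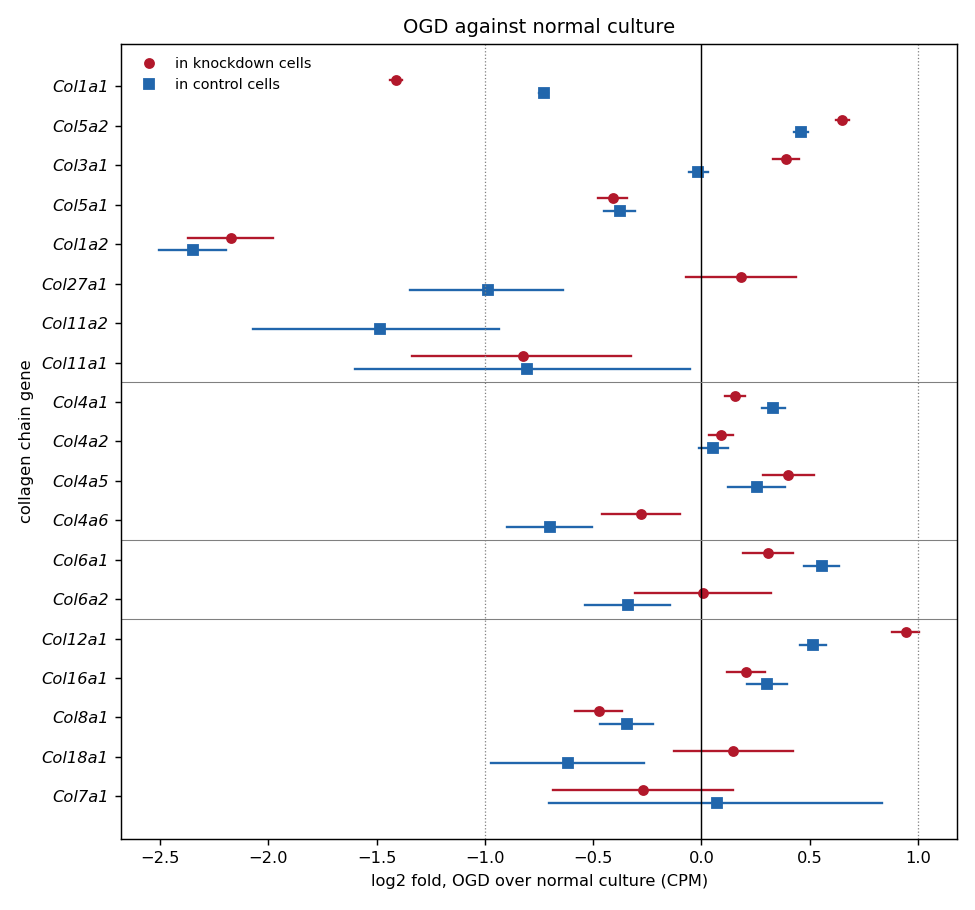
Points show the log2 fold of OGD over normal culture for the 19 chains with 100 or more reads in their highest library, where past the floor, in knockdown and in control cells, with 95% exact conditional binomial intervals and dotted lines at 2-fold. Col1a2 lies beyond the lower line in both, by CPM at 4.50-fold lower in knockdown cells and 5.09-fold lower in control cells. Col5a2 and Col12a1 lie above 0 in both.

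The 20 chains with fewer than 100 reads in every library were sorted by the library of their highest CPM. That was knockdown OGD for 3, control OGD for 4, knockdown normal for 2 and control normal for 11. The same count over all genes was not made. Collagen chains with any read numbered 30 in knockdown OGD, 30 in control OGD, 25 in knockdown normal and 35 in control normal. Knockdown normal, with the fewest, was the deepest library. Chains with 20 or more reads numbered 20 in knockdown OGD, 22 in control OGD, 22 in knockdown normal and 26 in control normal. Of all genes, the most with 20 or more reads were also in control normal, at 13813. The number was 13060 in knockdown OGD, 12020 in control OGD and 12854 in knockdown normal. For a chain with 0 reads the level of 3 reads, used here as the floor, was 0.140 to 0.195 CPM by library, and the upper limit of the exact Poisson interval was 0.172 to 0.240 CPM.

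Col2a1, the main chain of cartilage collagen, had 0 reads in knockdown OGD, 3 in control OGD, 0 in knockdown normal and 50 in control normal, so with the 0 reads set to 3 it was at least 18.3-fold lower with knockdown in normal culture, where the exact interval reaches down to 14.3-fold. Col9a2, a cartilage fibril-coating chain, had 25 reads in control normal and 0 elsewhere, and Col15a1, a basement membrane zone chain with an endostatin-like end, had 20 reads there and 0 elsewhere. Col9a3 had 19 reads in knockdown OGD, 26 in control OGD, 24 in knockdown normal and 78 in control normal, and Col17a1, a transmembrane chain of epithelial attachment, 42 in knockdown OGD, 29 in control OGD, 20 in knockdown normal and 50 in control normal. These chains were highest in the library whose neuronal and oligodendrocyte marker sums were highest; the part of that in their ratios was not tested. Since knockdown in normal culture and OGD in control cells share the control normal library, Col1a2, Col2a1, Col9a2, Col9a3 and Col11a2, lower in both, were each set against the same values.

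Col5a3, a type V chain, had 19 reads in knockdown OGD, 5 in control OGD, 21 in knockdown normal and 4 in control normal, higher in both knockdown libraries. The call in normal culture (log2 1.07) rests on 21 reads. The 12 chains past the floor in no comparison (Col4a3, Col4a4, Col8a2, Col10a1, Col13a1, Col19a1, Col20a1, Col22a1, Col23a1, Col24a1, Col25a1 and Col26a1) had at most 16 reads in any library. Col10a1, a chain of hypertrophic cartilage, had 16 reads in knockdown OGD, 13 in control OGD and 0 in both normal libraries. Col25a1, a transmembrane chain known from neurons, had 7 reads in knockdown OGD, 0 in control OGD, 2 in knockdown normal and 13 in control normal. At the edge of the floor, Col5a3 lay inside with a larger scaled count of 20.1 for OGD in knockdown cells and Col15a1 outside with 17.3 for OGD in control cells.

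**Figure D5:**
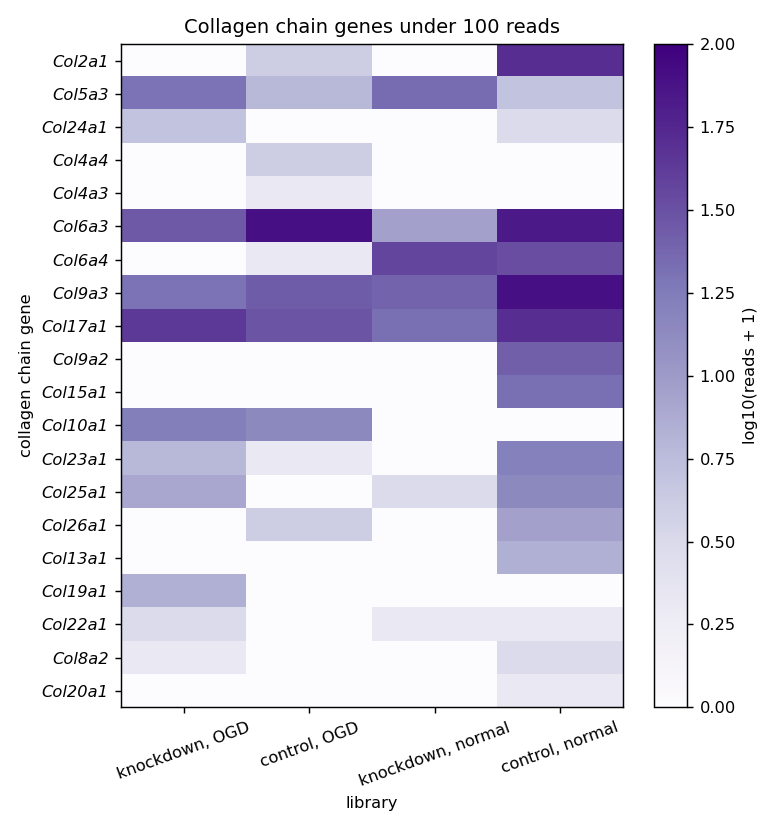
Shading shows log10 of reads plus 1 for the 20 chains with fewer than 100 reads in every library, 1 column per library. The darkest cells are those of Col9a3 (78 reads) and Col6a3 (77 and 67 reads), and 11 chains have their highest CPM in control normal.

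Genes that fold, cut, bind or break down collagen were set beside the chains. Over all genes, knockdown in normal culture had 6.14% higher and 16.3% lower. The shares were 10.1% and 4.45% with knockdown under OGD, 9.62% and 21.4% with OGD in control cells, and 19.1% and 16.8% with OGD in knockdown cells. The lists have 4 to 10 genes past the floor, and their counts of 0 to 4 are given as descriptions beside these shares. Of 10 measured chaperone and secretion genes past the floor, knockdown in normal culture had 0 higher and 1 lower (median log2 -0.21), and knockdown under OGD had 0 called (-0.29). With OGD, 1 was higher and 1 lower in control cells (-0.02), and 2 were higher and 0 lower in knockdown cells (0.14), counts near or below the shares of all genes. P4hb, the protein disulfide isomerase that is also a subunit of the collagen prolyl hydroxylase, stood at 1643 CPM in knockdown OGD against 686 CPM in knockdown normal, and at 2202 CPM in control OGD against 826 CPM in control normal. It stood higher under OGD while Col1a1 and Col1a2 stood lower. Serpinh1, the collagen-specific chaperone, had only 42 reads in knockdown OGD, 13 in control OGD, 53 in knockdown normal and 62 in control normal.

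Of the genes that process procollagen ends, knockdown in normal culture had 1 higher and 1 lower of 7 past the floor (median -0.14), 0 of 5 were called under OGD (-0.03), and 0 were higher and 1 lower of 6 with OGD in control cells (-0.24) and again of 6 in knockdown cells (-0.16). Tll1, a tolloid-like protease that trims procollagen, had 9 reads in knockdown OGD against 117 in knockdown normal, where control normal had 3. Collagen receptors gave 0 higher and 1 lower of 5 with knockdown in normal culture (-0.08), 0 and 1 of 4 under OGD (-0.50), 1 and 1 of 5 with OGD in control cells (0.16), and 0 and 1 of 4 in knockdown cells (-0.01). With so few genes, 1 call in a list cannot be set apart from the 4.45% to 21.4% of all genes. Itga1, a collagen-binding integrin chain, had 9 reads in knockdown OGD against 39 in control OGD, but 33 in knockdown normal against 16 in control normal, so its knockdown ratio differed in sign between cultures.

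Collagen-degrading proteases and their inhibitors gave 0 higher and 1 lower of 7 with knockdown in normal culture (median -0.07) and 2 higher and 0 lower of 7 under OGD (0.13). With OGD, 0 were higher and 2 lower of 7 in control cells (-0.75), and 2 higher and 2 lower of 8 in knockdown cells (-0.74), beside 21.4% of all genes lower in control cells and 19.1% higher and 16.8% lower in knockdown cells. Mmp2, a gelatinase, stood at 2.09 CPM in knockdown OGD against 9.68 CPM in knockdown normal, and at 0.520 CPM in control OGD against 4.64 CPM in control normal, lower under OGD in both. Timp3, a matrix-bound protease inhibitor, stood at 12.7 CPM in knockdown OGD against 9.10 CPM in control OGD, a log2 ratio of 0.46, and at 3.91 CPM in knockdown normal against 17.3 CPM in control normal, a log2 ratio of -2.01.

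Fibril partners gave 0 higher and 2 lower of 8 with knockdown in normal culture (-0.14), 3 and 2 of 9 under OGD (0.03), 0 and 4 of 8 with OGD in control cells (-0.64) and 3 and 2 of 8 in knockdown cells (0.66). All genes stood at 10.1% higher and 4.45% lower for knockdown under OGD, 21.4% lower for OGD in control cells and 19.1% higher in knockdown cells. Fbn1, the microfibril protein fibrillin, was lower under OGD, at 8.38 CPM in knockdown OGD against 37.1 CPM in knockdown normal and 11.2 CPM in control OGD against 34.7 CPM in control normal. Fmod, a proteoglycan that binds fibrils, had 8 reads in knockdown OGD against 70 in control OGD, and 0 in knockdown normal against 220 in control normal. It was lower with knockdown in both cultures, and each time passed the floor only through the control library. Tnc, of the same list, went the other way, with knockdown log2 ratios of 0.87 in normal culture, short of 2-fold, and 1.75 under OGD. Basement membrane partners gave 0 calls of 9 in either knockdown comparison (medians 0.25 in normal culture, 0.07 under OGD), and 1 higher of 8 with OGD in control cells (0.47) and 3 of 10 in knockdown cells (0.18, beside 19.1% of all genes), with 0 lower. Lamb2, a laminin chain, stood at 123 CPM in knockdown OGD against 47.3 CPM in knockdown normal.

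The TGF-beta pathway, a known inducer of collagen genes, gave 0 calls of 10 with knockdown in normal culture (0.13), and 1 higher and 1 lower of 10 under OGD (-0.05). With OGD, 1 was higher and 2 lower of 10 in control cells (-0.56), and 0 higher and 2 lower of 10 in knockdown cells (-0.62). These counts are near the 10.1% of all genes higher for knockdown under OGD and the 21.4% and 16.8% lower for OGD in control and knockdown cells. The ligand gene Tgfb3 stood at 4.34 CPM in knockdown OGD, 10.3 CPM in control OGD, 36.1 CPM in knockdown normal and 37.3 CPM in control normal. Tgfb2, another ligand, stood at 4.65 CPM in knockdown OGD, 0.845 CPM in control OGD, 12.5 CPM in knockdown normal and 17.6 CPM in control normal. Tgfb1, a further ligand named after its values were seen, stood at 47.5 CPM in knockdown OGD, 75.5 CPM in control OGD, 49.8 CPM in knockdown normal and 46.6 CPM in control normal. Tgfb2 and Tgfb3 thus stood lower in the OGD libraries, and Tgfb1 stood highest in control OGD.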

How the data were processed

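RNA was isolated with TRIzol, fragmented and made into deoxy-UTP-labelled cDNA libraries, per the labels' protocols. Reads were aligned with TopHat2 to mm10, per the submitters' processing notes; its version and the counting program, annotation and strand setting were not given in the sources used here.

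The authors deposited 4 tables, each of a pair of libraries, with a size-factor scaled count per gene (a signal), a fold ratio, its log2 value, and a p-value with its adjusted p-value, per the file headers. Columns headed by sample number hold deposited values read as FPKM from their range and their relation to gene length. Dividing out each column's size factor turned the deposited signal back into read counts, and 100% of them were whole within 1e-06; both tables holding a library gave the same reads. Each library was scaled by TMM over the 4 libraries, with factors of 1.03, 0.893, 1.03 and 1.05 in the order knockdown OGD, control OGD, knockdown normal and control normal. Every value column belonged to a sample (0 without).

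TMM came from edgeR 4.0.16 in R 4.3.3; other steps used Python 3.11.15, numpy 2.4.6, pandas 2.3.3, scipy 1.17.1 and matplotlib 3.10.9. Genes were named by GENCODE (GRCm38), and 19912 of 20089 identifiers had a symbol; promoter sequence came from RefSeq (GRCm38.p6). A gene with no reads in a library was at 0, and folds against 0 were computed against 3 reads per library. Reads carry no molecular identifiers, so intervals cover counting error only. The ratio and size rule were tested on simulated data. Collagen chains with 100 or more reads are given in all libraries, the rest in reads, counts or ranges; of each partner list up to 4 with the largest ratio could be named. The members and lists were chosen with earlier results of these data known. No test was run. Alternatives were total counts or median-of-ratios size factors, 0.1 or 2 CPM added, a floor of 100 or none, the deposited FPKM ratio and, added after the data were seen, 20 in both libraries.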

Additional observations from a re-analysis of the deposited data

How the results depend on the processing

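No paired analysis was possible because each comparison sets 1 library against 1, sharing a single replicate number, and for the same reason no library could be left out of a comparison. An additive model of virus plus culture over all 4 libraries, which pairs the viruses by culture, could be fitted but was left out. Counts that moved by over 1.5 times are as follows. Knockdown in normal culture, with 2 higher and 11 lower, gave 0 higher and 7 lower with 2 CPM added, 1 and 5 with a floor of 100, 1 and 5 with 20 in both libraries (added after the data were seen) and 0 higher with the FPKM ratio. Knockdown under OGD, with 2 higher and 5 lower, gave 0 higher with 2 CPM added, 1 higher and 3 lower with a floor of 100 and 3 lower with FPKM. OGD in control cells, with 0 higher and 6 lower, gave 2 lower with 2 CPM added or a floor of 100, 3 lower with 20 in both, and 1 higher (Col10a1, 13 reads against 0) with no floor. OGD in knockdown cells, with 1 higher, gave 2 higher with 0.1 CPM added, no floor or FPKM, and 0 with 2 CPM added, a floor of 100 or 20 in both. By construction a higher floor tests fewer chains, and more added CPM shrinks low ratios; the cause of the FPKM differences was not tested. Total counts moved the median of all genes to 0.18 from -0.01 for knockdown under OGD and to -0.33 from -0.10 for OGD in control cells, which ended the Col1a1 call (-0.90) and made Col27a1 lower. Of the ratios of single chains under the alternatives, 654 moved by less than the counting interval of the chain and 76 by more, and no called ratio changed sign. The 654 include every ratio under the changed floors (100, none or 20 in both libraries). A floor leaves a chain's ratio as it was by construction, so the 654 cannot be read as a measure of stability. Chains under 100 reads are limited by depth.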
